A study of Mus musculus with 8 samples.

Results

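The genes described here encode enzymes and partner proteins that write, erase or read marks on DNA and histones, or move nucleosomes. The list holds 47 symbols, taken by name from the 48321 symbols of the count tables: 4 genes of DNA methylation maintenance and writing (*Dnmt1*, *Dnmt3a*, *Dnmt3b*, *Uhrf1*), 3 TET dioxygenases, 5 Polycomb proteins, 6 histone demethylases, 10 histone deacetylases, 3 sirtuins, 5 histone H3 lysine 9 (H3K9) methyltransferases, 3 other histone methyltransferases, 4 histone acetyltransferases and 4 chromatin remodellers. Of the 47 genes, 46 passed the filter on low counts and were tested. *Hdac11* did not pass, with 3 and 3 counts in WT day 0, 4 and 1 in KO day 0, 5 and 4 in WT day 5 and 9 and 6 in KO day 5.

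RNA was sequenced from splenic CD8+ T cells of C57BL/6 mice, in 4 groups of 2 libraries: WT day 0, KO day 0, WT day 5 and KO day 5. The series describes its cells as cultured in vitro and as coming from *Satb1* F/F; *E8I-cre* animals, a cross in which the *E8I-cre* transgene is active in the mature CD8 lineage and deletes floxed *Satb1* there. The labels give the genotype only as WT or KO, so whether WT animals carried floxed alleles or the transgene is not given, and neither is the age of the mice nor the treatment of the day 5 cells beyond the word stimulated in the series title. Nothing says that the libraries of a group came from separate animals, and p-values then measure only the spread between these libraries, which may be technical.

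DNMT1 copies DNA methylation onto the new strand after replication with the help of UHRF1, DNMT3A and DNMT3B place it on unmethylated sites, and the TET enzymes oxidise methylcytosine and so start its removal. Polycomb repressive complex 2, built on EZH1 or EZH2 with EED and SUZ12, methylates lysine 27 of histone H3, a mark of silenced genes that KDM6B removes. In CD8+ T cells these enzymes are known for their part in the passage from naive to effector and memory cells, a passage that goes with fast division.

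Library totals ran from 4170126 to 11117971 counts, so that 3 counts, the floor used here, equalled 0.257 to 0.723 CPM (counts of a gene scaled to equal library size by trimmed mean of M-values). *Satb1* itself stood at 97.8 and 91.6 CPM in WT day 0, 144 and 125 in KO day 0, 96.5 and 116 in WT day 5 and 56.5 and 62.3 in KO day 5. Its level therefore ran against the label at day 0 (log2 fold change, KO against WT, 0.51 ± 0.15, FDR 0.125) and with it at day 5 (-0.84 ± 0.15, FDR 0.0162). The counts sum all exons of a gene and the labels do not say which exons are deleted, so the check is incomplete, and KO and WT stand here for what the labels say. The 6 markers of CD8+ T cells summed to 7958 to 13034 CPM per library. *Cd4* stayed at or below 0.964 CPM and *Zbtb7b*, also of CD4 T cells, at or below 2.47 CPM. The 8 B-cell markers summed to 124 to 125 CPM in WT day 0, 144 to 170 in KO day 0, 68.3 to 69.6 in WT day 5 and 81.5 to 84.6 in KO day 5. Most of that sum was *Cd79b*, at 122 and 118 CPM in WT day 0 and 141 and 164 in KO day 0. No B-cell marker was called between genotypes. The 16 proliferation genes summed to 748 to 816 CPM at day 0 and 7258 to 7880 CPM at day 5.

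Of the 46 genes tested, 12 rose and 14 fell between day 0 and day 5 in the libraries labelled WT, and 11 rose and 13 fell in those labelled KO. Those shares, 56.5% and 52.2%, stood beside 48.3% of the 12597 genes tested in WT and 50.2% in KO. By direction, 24.7% of all genes rose and 23.6% fell in WT, and 26.2% rose and 24.0% fell in KO. The median log2 fold change of the group was -0.18 in WT and -0.16 in KO, against -0.039 and -0.046 over all genes. The split by direction moved with the scaling. An offset for the GC content and length of exons gave 17 rises and 9 falls in WT and 14 and 8 in KO. Library totals alone gave 9 and 17 in WT and 10 and 19 in KO, while moving the median of all genes to -0.17 and -0.23. Over all genes, the main fit gave 3112 rises and 2969 falls in WT and 3296 and 3029 in KO. The offset gave 3265 and 2546 in WT and 3453 and 2630 in KO over all genes. With library totals they were 2668 and 3560 in WT and 2755 and 3936 in KO. In bulk libraries, fewer cells of a kind and less RNA per cell cannot be told apart.

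Both genotypes called 17 of the 46 genes, all of them in the same direction (8 higher and 9 lower at day 5). A further 9 were called in WT alone, 7 in KO alone and 13 in neither. Of the 17, 12 kept both calls under every alternative tried: *Uhrf1*, *Ezh2*, *Eed*, *Suz12*, *Tet2*, *Hdac6* and *Suv39h1* rose, and *Tet1*, *Tet3*, *Nsd1*, *Crebbp* and *Arid1a* fell. The share called in both genotypes was 37.0% of the group and 37.9% of all genes. Across the 46 genes, the log2 fold changes of WT and KO, which share no library, had a Pearson correlation of 0.843 (0.906 across all genes); genes are not independent replicates and no test is attached. The heat map of all 47 genes shows the change of day as the main contrast between columns, with *Uhrf1* as the row of widest range.

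**Figure D1:**
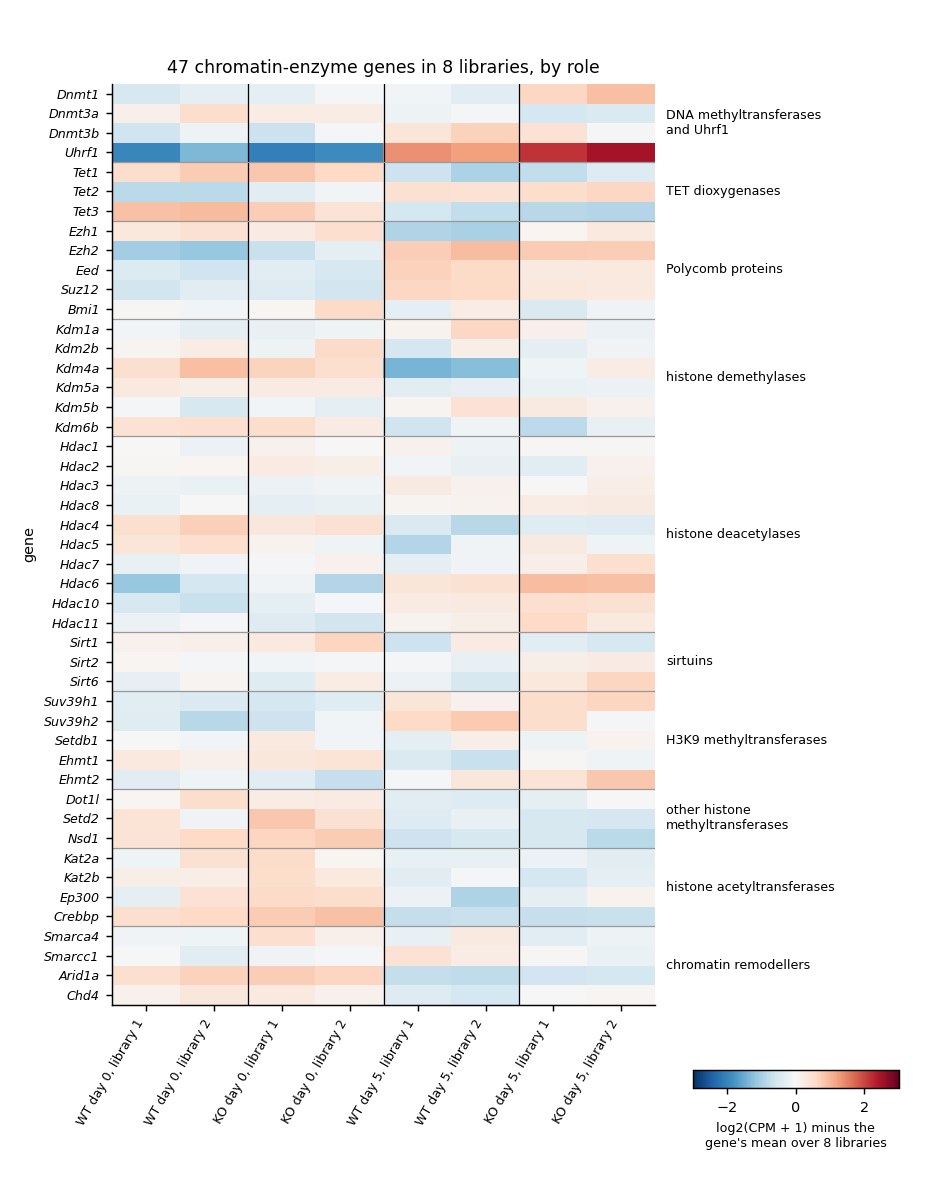
Level of each of the 47 genes (rows, by role) in each of the 8 libraries (columns), as log2(CPM + 1) minus the gene's mean over the libraries. Red marks libraries above and blue below that mean, and the 4 day 5 columns differ in colour from the 4 day 0 columns in, for example, *Uhrf1*, *Ezh2*, *Suz12*, *Tet1*, *Tet3*, *Crebbp* and *Arid1a*.

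Of the 4 genes of DNA methylation, *Dnmt3b* and *Uhrf1* rose in WT culture, and in KO *Dnmt1* and *Uhrf1* rose and *Dnmt3a* fell. *Uhrf1*, whose protein binds hemimethylated DNA and brings DNMT1 to it, stood at 5.72 and 9.27 CPM in WT day 0, 5.23 and 5.87 in KO day 0, 66.7 and 60.2 in WT day 5 and 116 and 146 in KO day 5. All 4 day 5 libraries lay far above all day 0 libraries, with a log2 fold change of 3.10 ± 0.24 (SE, as for all fold changes below) in WT (FDR 3.7e-07) and 4.57 ± 0.23 in KO (FDR 7.81e-09), or 8.59-fold and 23.8-fold. The summed CPM of the proliferation genes rose in the same libraries, and its part in the change was not tested. *Dnmt1*, the maintenance methyltransferase, was measured at 89.3 and 101 CPM in WT day 0, 102 and 120.0 in KO day 0, 118 and 97.8 in WT day 5 and 191 and 234 in KO day 5. Only the KO day 5 libraries stood apart from the rest, and the change in culture was 0.19 ± 0.16 in WT (FDR 0.355) and 0.94 ± 0.16 in KO (FDR 0.000279). The WT value passed the test with the offset, at 0.70.

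The de novo enzymes had lower levels. *Dnmt3a* fell in KO (-0.72 ± 0.18, FDR 0.00545) and measured -0.45 ± 0.18 in WT (FDR 0.0587). The KO call was lost with the offset (-0.14) and without KO day 5 replicate 1. The WT value was called lower with library totals (-0.58) and with at least 5 CPM in 2 libraries (-0.46). *Dnmt3b* rose in WT (0.99 ± 0.35, FDR 0.0311) from 5.37 and 7.69 to 11.5 and 14.5 CPM, a call lost with library totals and without WT day 0 replicate 1 or WT day 5 replicate 2. Per kilobase of exon, *Dnmt1* was at 12.9 CPM in WT day 0 (mean of 2), *Dnmt3a* at 2.67, *Uhrf1* at 1.76 and *Dnmt3b* at 1.28. In WT day 5 the same means were 14.6 for *Dnmt1*, 1.96 for *Dnmt3a*, 14.9 for *Uhrf1* and 2.54 for *Dnmt3b*. The *Uhrf1* libraries overlapped those of *Dnmt3b* in WT day 0 and those of *Dnmt1* in WT day 5 on this scale.

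The 3 TET dioxygenases were called in both genotypes, as were 37.9% of all genes, and not in the same direction. *Tet1* fell from 34.2 and 39.8 CPM to 14.8 and 11.6 CPM in WT and from 41.2 and 35.8 to 13.6 and 17.4 in KO (-1.47 ± 0.22 and -1.31 ± 0.21, FDR 0.000134 and 0.000221). *Tet3* fell from 49.5 and 51.3 to 17.99 and 15.4 CPM in WT and from 44.4 and 35.4 to 14.3 and 13.8 in KO (-1.59 ± 0.19 and -1.51 ± 0.19, FDR 2.61e-05 and 3.68e-05). *Tet2*, often mutated in blood cancers, rose from 44.2 and 44.1 to 107 and 106 CPM in WT and from 61.5 and 73.6 to 112 and 119 in KO (1.27 ± 0.15 and 0.78 ± 0.14, FDR 1.67e-05 and 0.000542). Day 0 and day 5 libraries did not overlap for any of the 3 genes. *Tet2* and *Tet3* were near each other per kilobase of exon in WT day 0 (2.62 and 3.02 CPM, means of 2), while in WT day 5 *Tet2* stood at 6.32, *Tet3* at 1.001 and *Tet1* at 0.853.

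Subunits of Polycomb repressive complex 2 rose together, with the exception of *Ezh1*. *Ezh2*, the catalytic subunit of dividing cells, went from 30.8 and 28.9 to 108 and 124 CPM in WT and from 40.4 and 52.7 to 110.4 and 109 in KO (1.95 ± 0.17 and 1.25 ± 0.16, FDR 1.32e-06 and 3.83e-05). *Suz12* went from 44.5 and 51.1 to 101 and 100.2 CPM in WT and from 49.9 and 44.4 to 81.9 and 80.3 in KO (1.07 ± 0.15 and 0.78 ± 0.15, FDR 7.59e-05 and 0.000767). *Eed*, whose protein reads the lysine 27 mark, rose by 1.14 ± 0.13 in WT and 0.67 ± 0.13 in KO on the log2 scale (FDR 1.31e-05 and 0.000764). In each of these 3 genes every day 5 library lay above every day 0 library. *Eed* also had the highest level per kilobase of exon of all 47 genes in every group, at means between 34.6 CPM in WT day 0 and 76.3 CPM in WT day 5. Its libraries overlapped those of *Hdac1* in WT day 0 (37.1 and 32.1 against 32.9 and 29.1) and in KO day 0 (39.1 and 35.2 against 36.3 and 33.6).

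*Ezh1*, the paralogue of *Ezh2* that predominates in resting cells, stood at 104 and 114 CPM in WT day 0, 98.7 and 118 in KO day 0, 44.1 and 41.9 in WT day 5 and 86.1 and 101 in KO day 5. The WT day 5 libraries were the low ones, and those of KO day 5 overlapped day 0. The change was -1.34 ± 0.16 in WT (FDR 1.9e-05) and -0.21 ± 0.15 in KO (FDR 0.267). Per kilobase of exon, *Ezh1* and *Ezh2* stood at 14.6 and 4.47 CPM in WT day 0 and at 5.78 and 17.4 CPM in WT day 5, so their order changed. In the libraries labelled KO the same means were 14.6 and 6.97 at day 0 and 12.6 and 16.5 at day 5. *Bmi1*, of Polycomb repressive complex 1, was low throughout (7.51 and 6.78, 7.55 and 11.2, 5.82 and 8.68 and 5.15 and 6.63 CPM in the same order of groups) and was not called in culture.

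**Figure D2:**
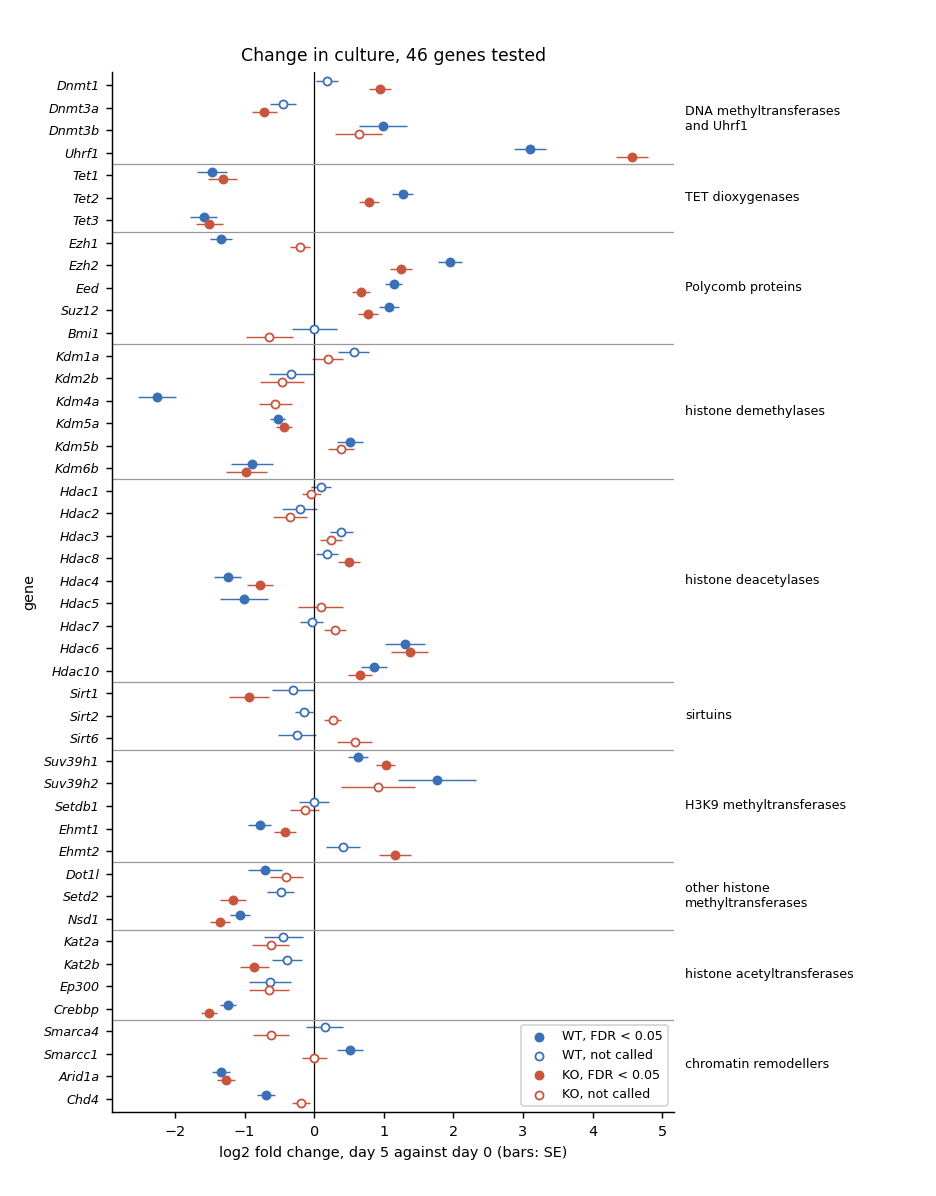
Log2 fold change of day 5 against day 0 for the 46 genes tested, in WT (blue) and KO (red) libraries, by role. Points are estimates of the edgeR fit with bars of 1 SE, filled where FDR was under 0.05. *Uhrf1* lies farthest to the right in both genotypes and *Kdm4a* in WT farthest to the left.

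Promoter sequence is shown for 5 genes of DNA methylation maintenance and of Polycomb repressive complex 2, 4 of them with a match to the motif searched and *Ezh1* without one, a choice made after the matches were seen. RefSeq windows of 250 bases before and 50 bases after a transcript start (GRCm38.p6, read on the gene's strand) were given for 41 of the 47 genes, 58 windows in all. The 6 without a window were *Kdm5a*, *Kdm6b*, *Hdac1*, *Hdac3*, *Hdac10* and *Nsd1*. The windows were searched on both strands for 3 forms of the E2F motif (TTTCCCGC, TTTGGCGC and TTTCGCGC), an element known from promoters of replication genes. Capitals mark the matches. The *Uhrf1*, *Suz12* and *Ezh1* sequences are the 250 bases before the start, where GENCODE M21 annotates no exon. The *Dnmt1* and *Ezh2* matches lie in annotated 5′ untranslated exons, and 30 bases around each are shown.
Uhrf1, chr17:56304063-56304312, plus strand: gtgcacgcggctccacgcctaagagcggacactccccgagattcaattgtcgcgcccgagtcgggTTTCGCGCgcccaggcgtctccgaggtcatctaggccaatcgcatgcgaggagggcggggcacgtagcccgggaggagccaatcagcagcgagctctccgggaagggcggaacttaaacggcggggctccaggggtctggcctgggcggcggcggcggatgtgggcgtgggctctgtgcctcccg
Dnmt1, chr9:20952824-20952853, minus strand: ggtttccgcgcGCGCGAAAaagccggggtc
Suz12, chr11:79992856-79993105, plus strand: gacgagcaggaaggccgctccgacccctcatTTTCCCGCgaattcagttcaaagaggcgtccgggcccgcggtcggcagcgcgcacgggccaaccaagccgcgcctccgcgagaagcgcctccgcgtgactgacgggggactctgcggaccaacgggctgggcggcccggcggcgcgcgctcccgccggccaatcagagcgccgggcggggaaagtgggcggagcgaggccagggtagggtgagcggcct
Ezh2, chr6:47595009-47595038, minus strand: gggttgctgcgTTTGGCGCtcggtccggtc
Ezh1, chr11:101226464-101226713, minus strand: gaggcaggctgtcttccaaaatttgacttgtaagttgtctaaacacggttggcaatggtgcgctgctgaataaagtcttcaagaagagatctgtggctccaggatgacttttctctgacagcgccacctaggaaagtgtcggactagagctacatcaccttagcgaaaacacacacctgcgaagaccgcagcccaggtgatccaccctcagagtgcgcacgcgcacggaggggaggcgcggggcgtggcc

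The match began 185 bases before the start in *Uhrf1* and 219 bases before it in *Suz12*. In *Dnmt1* it began 219 bases before the start of that window, on the opposite strand, and a further match, TTTGGCGC, began 33 bases after it. In *Ezh2* the match began 3 bases after the start, and the windows of *Ezh1* and of *Eed*, which rose in both genotypes, held none of the 3 forms. *Dnmt1* has 3 windows and *Uhrf1* has 2, and the matches are in the window farthest along the gene; the others held no form. At least 1 form was present for 5 of the 41 genes (*Uhrf1*, *Dnmt1*, *Suz12*, *Ezh2* and *Arid1a*), or 12.2%, against 2.12% of the 27025 genes with a window; *Arid1a* fell in culture. By window, the 3 forms were held by 1.07%, 0.514% and 0.323% of all 32851 windows. CCAAT was held by 46.3% of the 41 genes and 41.1% of all genes, TTTGAA by 19.5% and 20.2%, and the GC box GGGCGG by 80.5% and 38.2%. A match is a string of letters and not a bound site.

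Of the 6 histone demethylases, 1 rose and 3 fell in WT culture, and in KO 2 fell and none rose. The shares called, 66.7% in WT and 33.3% in KO, stood beside 48.3% and 50.2% of all genes. *Kdm1a*, which removes methyl groups from lysine 4, was at 21.6 and 18.8 CPM in WT day 0, 19.3 and 20.7 in KO day 0, 24.7 and 35.7 in WT day 5 and 25.4 and 20.3 in KO day 5 and was not called in either genotype. With the offset, with DESeq2 size factors and without WT day 5 replicate 1 or KO day 0 replicate 2, *Kdm1a* was called higher in WT. *Kdm4a*, an eraser of lysine 9 and lysine 36 methylation, stood at 19.7 and 26.7 CPM in WT day 0, 22.2 and 20.003 in KO day 0, 4.59 and 5.06 in WT day 5 and 12.5 and 16.3 in KO day 5. It fell in WT (-2.26 ± 0.27, FDR 2.51e-05), and the KO value was -0.56 ± 0.24 (FDR 0.0661), with WT day 5 below all other libraries. *Kdm5a*, an eraser of lysine 4 methylation with CPM of 417 to 454 in WT day 0, fell in both genotypes (-0.53 ± 0.11 and -0.44 ± 0.11), the KO call being lost with the offset (-0.092) and without KO day 5 replicate 1.

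*Kdm6b* went from 15.6 and 16.5 to 7.05 and 10.4 CPM in WT and from 16.7 and 13.6 to 6.07 and 9.47 in KO (-0.90 ± 0.30 and -0.97 ± 0.29, FDR 0.0247 and 0.0137). Both calls were lost with the offset (-0.15 and -0.54), the WT call also with DESeq2 and without WT day 0 replicate 1, WT day 0 replicate 2 or WT day 5 replicate 1, and the KO call without KO day 0 replicate 1 or KO day 5 replicate 1. *Kdm5b*, paralogue of *Kdm5a*, was called higher in WT (0.51 ± 0.19, FDR 0.0415), a call lost with library totals, with no filter, in the 4 WT libraries alone and without WT day 0 replicate 2, WT day 5 replicate 2 or either KO day 5 library. *Kdm2b* measured -0.33 ± 0.32 in WT and -0.46 ± 0.31 in KO and was not called.

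Of the class I deacetylases, *Hdac1*, *Hdac2*, *Hdac3* and *Hdac8*, the last alone was called in culture. *Hdac1*, catalytic subunit of several corepressor complexes, was at 113 and 100.4 CPM in WT day 0, 125 and 116 in KO day 0, 126 and 102 in WT day 5 and 118 and 116 in KO day 5. Day 0 and day 5 libraries overlapped in each genotype (0.095 ± 0.14 in WT and -0.042 ± 0.14 in KO). *Hdac2* and *Hdac3* were not called either (-0.21 to 0.39 in WT and -0.35 to 0.25 in KO). With DESeq2 size factors, *Hdac3* was called higher in WT (0.43). *Hdac8* was called in KO alone (0.50 ± 0.15, FDR 0.0166). That call was lost with library totals, with no filter and without KO day 0 replicate 1, KO day 5 replicate 1 or KO day 5 replicate 2.

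*Hdac6*, the cytoplasmic tubulin deacetylase, rose from 8.41 and 13.3 to 25.8 and 27.5 CPM in WT and from 18.2 and 10.3 to 38.4 and 37.3 in KO (1.30 ± 0.29 and 1.37 ± 0.27, FDR 0.00264 and 0.000941). *Hdac4*, which shuttles between nucleus and cytoplasm, fell from 44.5 and 53.1 to 23.5 and 17.4 CPM in WT and from 40.2 and 44.04 to 24.6 and 24.2 in KO (-1.24 ± 0.20 and -0.78 ± 0.19, FDR 0.000224 and 0.00448). The KO call of *Hdac4* was lost with the offset (-0.21), and 22.4% of its exon length is shared with exons on the other strand. *Hdac10*, the polyamine deacetylase, rose in both genotypes (0.86 ± 0.19 and 0.66 ± 0.18), the KO call being lost without KO day 0 replicate 1 or KO day 5 replicate 1.

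The remaining members of that family were less settled. *Hdac5* was called lower in WT (-1.01 ± 0.35, FDR 0.0288) at 4.06 to 7.71 CPM in WT day 5, and the call was lost with the offset (-0.20), with DESeq2 and without WT day 0 replicate 1, WT day 0 replicate 2 or WT day 5 replicate 1. *Hdac7*, the class IIa enzyme of thymocytes, measured -0.038 ± 0.16 in WT and 0.30 ± 0.16 in KO, neither called. With the offset it was called higher in both (0.74 and 0.76), and its longest transcript had a GC content of 60.2%. *Hdac11* went from 0.537 and 0.678 to 0.882 and 0.964 CPM in WT and from 0.343 and 0.184 to 1.66 and 1.14 CPM in KO, at or near the floor.

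Among the sirtuins, deacetylases that consume NAD, *Sirt1* was at 14.8 and 15.1 CPM in WT day 0, 16.99 and 21.7 in KO day 0, 8.47 and 16.1 in WT day 5 and 10.5 and 9.47 in KO day 5. It was called lower in KO (-0.94 ± 0.29, FDR 0.0171) and measured -0.31 ± 0.30 in WT (FDR 0.421), and the KO call was lost without KO day 0 replicate 2, KO day 5 replicate 1 or KO day 5 replicate 2. *Sirt2* and *Sirt6* were not called in either genotype (-0.25 to -0.15 in WT and 0.26 to 0.58 in KO).

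*Suv39h1*, which places trimethylation on lysine 9 in heterochromatin, rose in both genotypes. Its values were 91.6 and 83.9 CPM in WT day 0, 79.7 and 89.002 in KO day 0, 147 and 124 in WT day 5 and 164 and 179 in KO day 5 (0.63 ± 0.14 and 1.03 ± 0.14, FDR 0.00271 and 5.99e-05). No day 5 library fell below a day 0 library, and 14.6% of the exon length is shared with exons on the other strand. Its paralogue *Suv39h2* was called higher in WT (1.77 ± 0.57, FDR 0.0214) with day 0 counts of 9 and 4 and day 5 counts of 23 and 20, a call lost with DESeq2 and without WT day 0 replicate 2 or either WT day 5 library.

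*Ehmt1* and *Ehmt2* encode partners of the dimer that dimethylates lysine 9. *Ehmt1* fell in both genotypes (-0.78 ± 0.16 and -0.42 ± 0.16, FDR 0.00165 and 0.0410), both calls being lost with the offset (-0.41 and -0.14) and the KO call also with DESeq2 size factors, with no filter, with DESeq2, at equal depth and without either WT day 0 library or any of the 4 libraries labelled KO. *Ehmt2* rose in KO (1.16 ± 0.23, FDR 0.00121) and measured 0.41 ± 0.24 in WT (FDR 0.184), which passed the test with the offset at 1.14. *Setdb1*, the lysine 9 enzyme of silenced repeats, measured -0.0056 ± 0.22 in WT and -0.14 ± 0.21 in KO and was not called.

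None of the 3 other histone methyltransferases was called higher in either genotype, against 24.7% of all genes in WT and 26.2% in KO. Of the 3, 2 (66.7%) were called lower in each genotype, against 23.6% and 24.0% of all genes. *Nsd1*, which dimethylates lysine 36, fell from 182 and 205 to 87.8 and 97.1 CPM in WT and from 212 and 232 to 96.9 and 77.1 in KO (-1.07 ± 0.15 and -1.35 ± 0.15, FDR 6.95e-05 and 8.57e-06). *Setd2*, which adds the third methyl group to that residue, fell in KO (-1.17 ± 0.19, FDR 0.000268) and measured -0.48 ± 0.19 in WT (FDR 0.0556). The WT value was called lower with library totals (-0.62) and with at least 5 CPM in 2 libraries (-0.49). *Dot1l*, the lysine 79 enzyme, stood at 15.4 and 21.7 CPM in WT day 0, 17.4 and 17.6 in KO day 0, 11.5 and 11.1 in WT day 5 and 11.96 and 14.6 in KO day 5. It was called lower in WT (-0.71 ± 0.25, FDR 0.0321), but the value was 0.021 with the offset, and the call was lost with DESeq2, with no filter, at equal depth, in the 4 WT libraries alone and without WT day 0 replicate 2 or either WT day 5 library.

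All 4 acetyltransferases had negative log2 fold changes in both genotypes, as had 6494 of the 12597 genes tested in WT and 6527 in KO. Of the 4, 1 (25.0%) was called lower in WT and 2 (50.0%) in KO, against 23.6% and 24.0% of all genes. *Crebbp*, coactivator of many transcription factors, stood at 354 and 381 CPM in WT day 0, 426 and 466 in KO day 0, 154 and 159 in WT day 5 and 156 and 157 in KO day 5. It fell in WT (-1.23 ± 0.12, FDR 3.03e-06) and in KO (-1.51 ± 0.12, FDR 4.25e-07), with no overlap between days. Its paralogue *Ep300* had lower levels and wide spread between libraries (15.6 and 26.5 CPM in WT day 0 and 16.8 and 9.64 in WT day 5). It was not called (-0.64 ± 0.31 and -0.65 ± 0.29), but was called lower with library totals in both genotypes (-0.78 and -0.83). At equal depth it was called lower in WT, and with no filter or in the KO libraries alone it was called lower in KO. *Kat2a*, the catalytic subunit of SAGA, was at 13.1 and 20.1 CPM in WT day 0, 21.3 and 14.9 in KO day 0, 12.2 and 12.05 in WT day 5 and 12.5 and 11.2 in KO day 5. It was not called, but was called lower in KO with library totals (-0.81). *Kat2b*, its paralogue, fell in KO (-0.86 ± 0.21, FDR 0.00405), a call lost without KO day 5 replicate 1, and measured -0.39 ± 0.21 in WT.

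Of the remodellers, *Arid1a*, the DNA-binding subunit of the BAF complex, fell from 180.3 and 209 to 78.1 and 75.2 CPM in WT and from 216 and 201 to 85.3 and 88.4 in KO (-1.34 ± 0.13 and -1.26 ± 0.13, FDR 4.18e-06 and 5.74e-06). The days did not overlap. *Smarca4*, the ATPase of the same complex, was at 11.8 and 11.5 CPM in WT day 0, 18.3 and 14.1 in KO day 0, 10.8 and 15.4 in WT day 5 and 9.93 and 11.4 in KO day 5. It was not called (0.15 ± 0.27 and -0.62 ± 0.26), but was called higher in WT with the offset (0.71). In KO it was called lower with library totals (-0.80) and with the newer edgeR form (-0.64). *Smarcc1*, its core subunit, was called higher in WT (0.51 ± 0.18, FDR 0.0345), which was lost with library totals, with no filter and without WT day 0 replicate 2, WT day 5 replicate 1 or KO day 5 replicate 1. *Chd4*, the ATPase of NuRD, fell in WT (-0.70 ± 0.13, FDR 0.000843), lost with the offset (-0.22), and measured -0.19 ± 0.13 in KO. The panels of single libraries show the genes called between genotypes at day 5 and a selection of those called in culture in both genotypes.

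**Figure D3:**
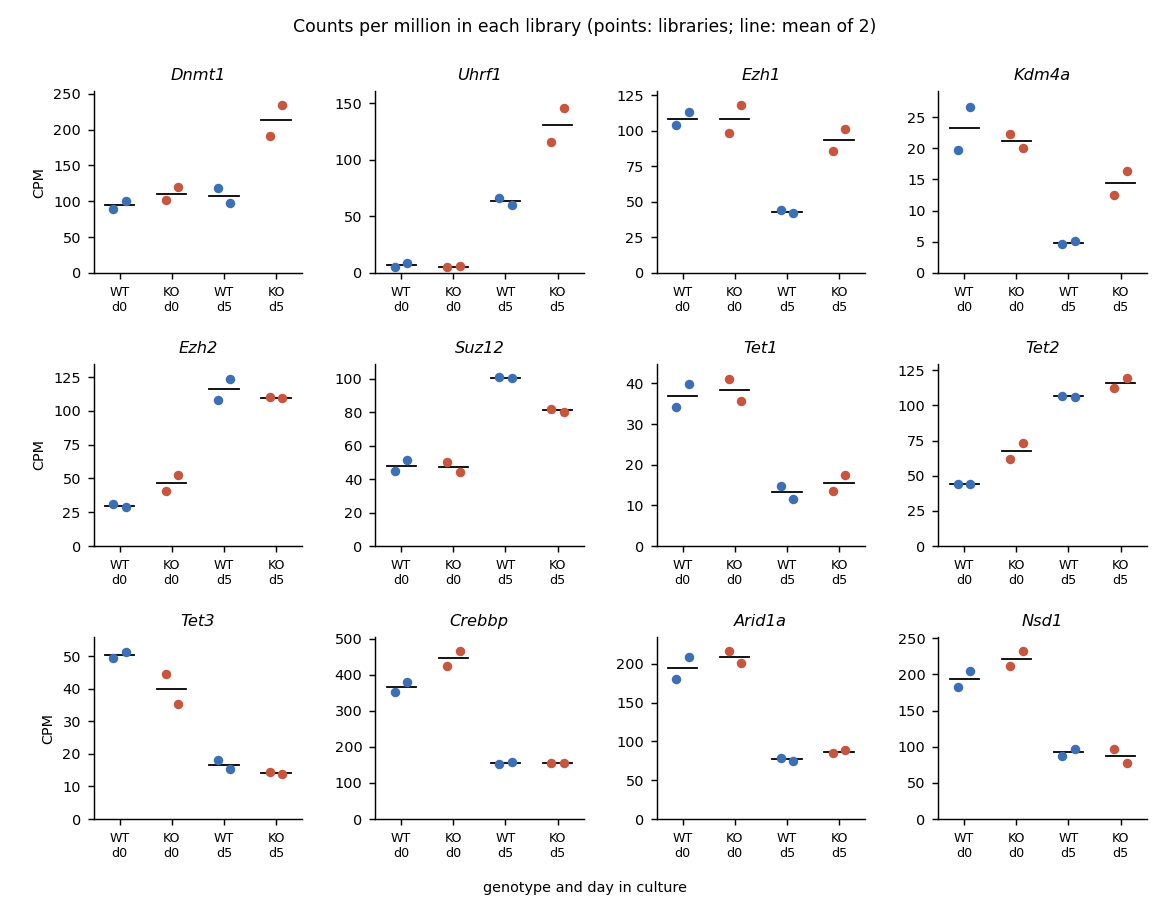
CPM of 12 genes in each library, by genotype and day (d0, d5). Points are libraries (blue WT, red KO), lines are means of 2, and axes start at 0. The top row holds the genes called between genotypes at day 5, where both KO libraries lie above both WT libraries, and the lower rows hold genes that rose or fell in culture in both genotypes.

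Genotype was compared within each day. At day 0 none of the 46 genes was called by edgeR in KO against WT, where 1.8% of all genes were; 5 (10.9%) had an unadjusted p under 0.05, against 13.8% of all genes, and DESeq2 called 1, *Tet2*, and 2.36% of all genes. *Tet2* stood at 44.2 and 44.1 CPM in WT and 61.5 and 73.6 in KO (0.61 ± 0.15, FDR 0.0611, between 0.0279 and 0.309 over the alternatives). The median log2 fold change of the group was 0.087, against -0.0017 over all genes.

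At day 5, 4 of the 46 genes (8.7%) were called, all higher in the libraries labelled KO, where 1.63% of all genes were called and 1.31% were called higher. They were *Dnmt1*, *Uhrf1*, *Ezh1* and *Kdm4a*. Of the 46, 12 (26.1%) had an unadjusted p under 0.05, against 14.1% of all genes, and DESeq2 called 5 of them and 2.79% of all genes. The median log2 fold change of the group was 0.046, against 0 over all genes. The 4 genes lie on different chromosomes: *Dnmt1* at chr9:20907209-20959888, *Uhrf1* at chr17:56303321-56323486, *Ezh1* at chr11:101191115-101226463 and *Kdm4a* at chr4:118136957-118180043 (GRCm38).

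*Ezh1* was at 44.1 and 41.9 CPM in WT day 5 and 86.1 and 101 in KO day 5, 2.18-fold higher in KO (1.12 ± 0.16, FDR 0.00385). *Dnmt1* was 1.97-fold higher (0.98 ± 0.16, FDR 0.00931), with 118 and 97.8 CPM in WT and 191 and 234 in KO. *Uhrf1* was 2.06-fold higher (1.04 ± 0.19, FDR 0.0169), with 66.7 and 60.2 CPM in WT and 116 and 146 in KO. In each of the 3 both KO libraries lay above both WT libraries. *Kdm4a*, the least expressed of the 4, had 26 and 21 counts in WT day 5 and 68 and 86 counts in KO day 5, a 2.99-fold difference (1.58 ± 0.28, FDR 0.0155).

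These calls rested on few libraries. All 4 kept their call under every setting that used all libraries, but none kept it under every left-out library. Each call was lost without KO day 5 replicate 2, where the differences were 0.82 for *Dnmt1*, 0.86 for *Uhrf1*, 0.998 for *Ezh1* and 1.38 for *Kdm4a*. Leaving out another day 5 library lost some of them, but not that of *Ezh1*. Calls over all genes also became fewer whenever a day 5 library was left out. With all libraries, the offset lowered the differences to 0.75 for *Dnmt1*, 0.87 for *Uhrf1*, 0.97 for *Ezh1* and 1.38 for *Kdm4a*. Their longest transcripts had a GC content of 53.95%, 53.7%, 51.2% and 53.6%. None of the 16 proliferation genes was called between the genotypes at day 5. An unadjusted p under 0.05 was held by 3 (18.8%), against 14.1% of all genes, and 10 log2 fold changes were positive and 6 negative. At day 0, 1 of the 16 (6.25%) was called, lower in KO, against 1.8% of all genes called in either direction. In the interaction 0 of the 16 were called, and 5 (31.2%) had an unadjusted p under 0.05, against 12.4% of all genes. At day 5 the 16 summed to 7258 to 7727 CPM in WT and 7509 to 7880 CPM in KO. *Top2a* alone gave 2454 to 2476 CPM in WT and 2413 to 2613 in KO. *Mcm2* was at 120 and 96.9 CPM in WT and 155 and 157 in KO, and *Cdk1* at 243 and 291 in WT and 194 and 207 in KO. *Cd8a* was higher in KO at day 5 (0.60 ± 0.11, FDR 0.0155). The 10 myeloid markers summed to 35.1 to 41.7 CPM in WT day 5 and 52.3 to 73.6 CPM in KO day 5, with 8 and 7 of them at or under the floor and *Cd14*, *Fcgr1*, *Adgre1*, *S100a8* and *S100a9* at 0 in all 4 libraries. *Cd68* gave most of that sum (30.7 and 37.1 CPM in WT and 68.4 and 46.4 in KO, 0.76 ± 0.27, FDR 0.207). The part of these markers in the 4 differences was not tested.

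**Figure D4:**
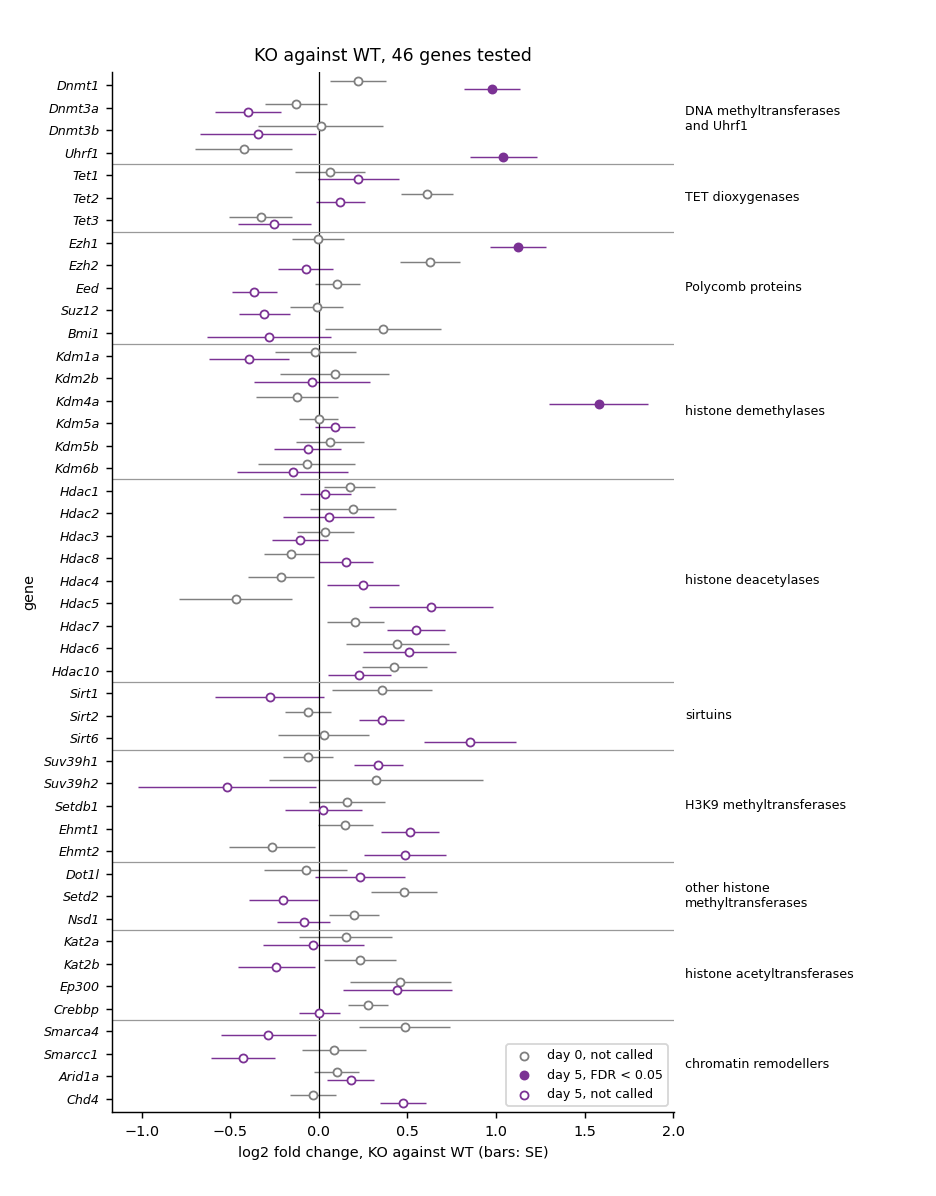
Log2 fold change of KO against WT for the 46 genes tested, at day 0 (grey) and day 5 (purple), by role. Points are estimates of the edgeR fit with bars of 1 SE, filled where FDR was under 0.05. The 4 filled points, all at day 5 and to the right of every open point, are *Dnmt1*, *Uhrf1*, *Ezh1* and *Kdm4a*.

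The closest to a call among the rest at day 5 were *Chd4*, *Hdac7* and *Sirt6*, all with higher values in KO. *Chd4* was at 149 and 133 CPM in WT day 5 and 191 and 199.9 in KO day 5 (0.47 ± 0.13, FDR 0.104), and DESeq2 called it; over all alternatives its FDR lay between 0.0451 and 0.583. *Hdac7* (0.55 ± 0.16, FDR 0.126) was at 58.9 and 66.99 and 82.04 and 102 CPM, and *Sirt6* (0.85 ± 0.26, FDR 0.139) at 16.9 and 13.5 and 24.5 and 30.9 CPM. Of the Polycomb genes, *Eed* (-0.37 ± 0.13, FDR 0.190), *Suz12* (-0.31 ± 0.14, FDR 0.364) and *Ezh2* (-0.076 ± 0.16, FDR 0.886) were not called.

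The interaction, which is the difference between KO and WT at day 5 minus that at day 0, was called by edgeR for none of the 46 genes and for 0.159% of all genes. Of the 46, 13 (28.3%) had an unadjusted p under 0.05, against 12.4% of all genes. *Ezh1* came nearest (1.13 ± 0.22, FDR 0.0578), then *Kdm4a* (1.70 ± 0.36, FDR 0.0951) and *Uhrf1* (1.47 ± 0.33, FDR 0.122); *Dnmt1* was at 0.76 ± 0.22 (FDR 0.209). DESeq2 and a fit with no filter on low counts each called *Ezh1*, *Kdm4a* and *Uhrf1*, and a fit at equal depth called *Ezh1*. Of all genes, DESeq2 called 1.07%, the fit with no filter 0.448% and that at equal depth 0.412%. The calls in culture made in a single genotype, such as the fall of *Ezh1* and *Kdm4a* in WT and the rise of *Dnmt1* in KO, are thus not shown to differ between genotypes by the edgeR test.

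Among genes called in both genotypes, those that fell had the longer summed exons. This length had a median of 5107.5 bp in the 8 genes higher in both genotypes (3379 to 16870 bp) and 14158 bp in the 9 lower in both (6954 to 17483 bp). *Tet2*, at 16870 bp, was the long gene among those that rose, and *Kdm4a*, whose fall in WT was the largest of the group, had 5782 bp. Across the 46 genes, the log2 fold change in culture and exon length had a Spearman correlation of -0.521 in WT and -0.465 in KO, against -0.116 and -0.149 across all genes with a length. With the offset, the values were -0.391 and -0.292 in the group and -0.0156 and -0.0191 across all genes. The KO against WT difference at day 5 correlated with GC content at 0.455 in the group and 0.305 across all genes, and at 0.125 and 0.0286 with the offset. These are descriptions over genes that share libraries and depth, and the part of length or GC content in any change was not tested.

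**Figure D5:**
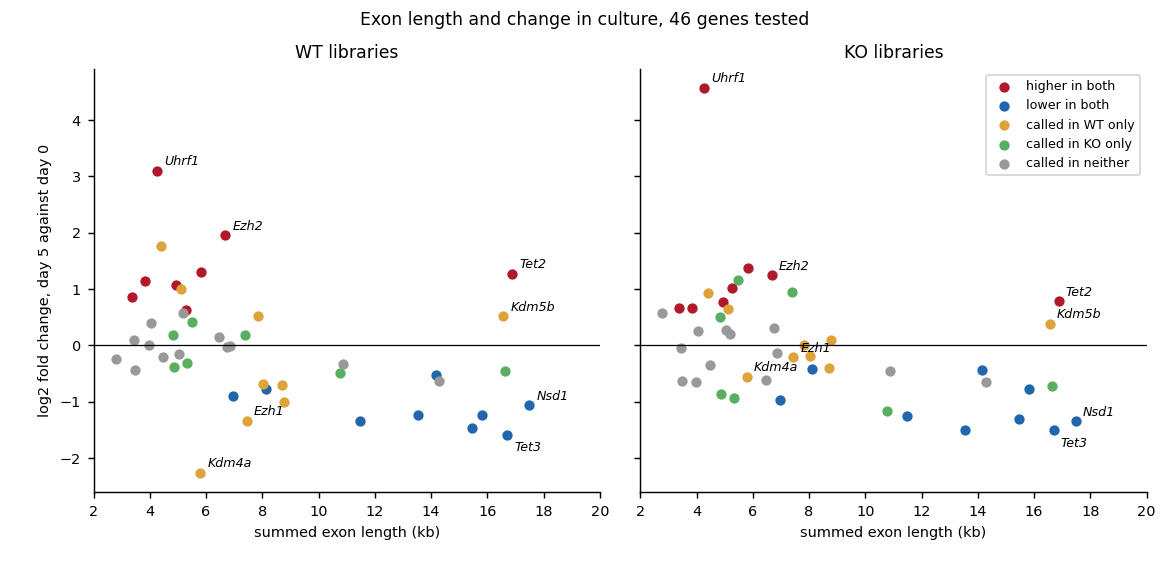
Summed exon length (kb, GENCODE M21) against the log2 fold change of day 5 against day 0 for the 46 genes tested, in WT (left) and KO (right). Colours give the calls in the 2 genotypes. Genes lower in both lie mostly to the right (median 14158 bp), and genes higher in both to the left (median 5107.5 bp) with the exception of *Tet2*.

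The wider chromatin machinery was read from 146 further genes, of which 145 were found and 141 tested. None was called between genotypes at either day or in the interaction; an unadjusted p under 0.05 was held by 16.3% at day 0, 11.3% at day 5 and 15.6% in the interaction, against 13.8%, 14.1% and 12.4% of all genes. In culture, 31 rose and 49 fell in WT and 30 rose and 44 fell in KO, or 56.7% and 52.5% against 48.3% and 50.2% of all genes, and 60 were called in both genotypes (23 higher, 37 lower). Of the 13 lysine 4 methyltransferases and partners, 1 rose and 8 fell in WT and 1 rose and 6 fell in KO. Of the 33 remodeller subunits, 2 rose and 14 fell in WT and 4 rose and 13 fell in KO. The 22 Polycomb partners tested went both ways, with 8 rises and 3 falls in WT and 7 and 4 in KO. Of all genes, 24.7% rose and 23.6% fell in WT, and 26.2% rose and 24.0% fell in KO. These counts are those of the main fit, and their values with the offset are not given here. For the group described above, the split by direction moved with the offset.

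The largest rises in both genotypes were those of *Hells*, a remodeller needed for DNA methylation of repeats (3.59 ± 0.23 and 2.996 ± 0.22), *Whsc1*, the lysine 36 methyltransferase also called *Nsd2* (3.15 ± 0.18 and 2.87 ± 0.17), *Cbx5*, which encodes a heterochromatin protein that binds methylated lysine 9 (1.58 ± 0.21 and 1.81 ± 0.20), *Kmt5a*, the lysine 20 enzyme of histone H4 (2.04 ± 0.23 and 1.24 ± 0.22), and *Sirt3*, the mitochondrial sirtuin (1.25 ± 0.16 and 1.45 ± 0.15). *Hells* went from 7.51 and 7.69 CPM in WT day 0 to 79.4 and 104 in WT day 5. *Whsc1* thus rose where *Nsd1* fell. The largest falls were those of *Atf7ip*, partner of *Setdb1* (-2.23 ± 0.18 and -1.33 ± 0.17), the lysine 4 enzymes *Kmt2d* (-1.69 ± 0.19 and -1.87 ± 0.18) and *Kmt2c* (-1.52 ± 0.16 and -1.81 ± 0.16), the demethylase *Kdm1b* (-1.79 ± 0.20 and -1.54 ± 0.20) and *Cbx7*, of Polycomb repressive complex 1 (-1.37 ± 0.37 and -1.94 ± 0.36). All 10 had FDR under 0.05 in both genotypes in the main fit, and their values with the offset are not given here. *Kmt2d* went from 62.1 and 82.1 to 20.3 and 24.6 CPM in WT and from 98.1 and 102 to 28.9 and 25.8 in KO.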

How the data were processed

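The authors deposited, for each of 8 libraries, raw read counts per gene symbol, which were neither normalized nor pooled. Per the labels, total RNA was purified with Trizol and a Direct-zol kit, libraries were made with an NEBNext Ultra kit and read to 50 bp on a HiSeq2500. The submitters' processing notes name HISAT2 2.1.0, HTSeq 0.11.1 and the build mm10 (GRCm38); the annotation and strand setting of the counting are not given in the sources used here. The labels name total RNA and no step that removes ribosomal RNA or selects poly(A), so any such step is not known. Assigned reads made up 21.2% to 24.5% of the records of a library and totalled 4170126 to 11117971 counts. Summary lines of the counting (no feature 27.5% to 33.7%, alignment not unique 31.8% to 37.4%) entered no total or test. Reads that aligned to more than 1 place were not counted.

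Groups were read from the sample titles. All 8 libraries entered a single edgeR 4.0.16 quasi-likelihood fit (R 4.3.3) with a mean per group, TMM factors and the default filter (minimum count 10), which left 12597 genes, with a common biological coefficient of variation of 15.0%. Tests were two-sided, adjusted by Benjamini-Hochberg over those genes (FDR) and called under 0.05, and no set test was run. The SE given is the absolute log2 fold change divided by the square root of its quasi-likelihood F statistic, not a direct output of the fit. Replicates of each group differed by more than counting noise (chi-square per degree of freedom 4.69 to 9.40). Symbols were matched to GENCODE M21 (all 47 genes). The summed exons of a gene gave its length and the longest transcript its GC content, both known for 99.1% of genes tested. Alternatives were DESeq2 size factors within edgeR, library totals, no filter, at least 5 CPM in 2 libraries, the 4 libraries of a comparison alone, the newer edgeR form, DESeq2 1.42.0, thinning to equal depth, an offset for the GC content and length of exons (loess span 0.3), the replicate block with and without it, and leaving out each library.

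The members, the gene lists and the naming rule were chosen with earlier results of these data known. By that rule, values of each library are given for genes called between genotypes, for the 12 with the largest mean change among those called in both genotypes and for the first gene of a role; among the 146 further genes, the 5 largest rises and falls called in both genotypes with at least 10 CPM are named. Values of each library for other genes were added after they were seen. A planned comparison of protein sequences between paralogues was not run.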

Additional observations from a re-analysis of the deposited data

How the results depend on the processing

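Of 26 calls in WT and 24 in KO culture, 17 and 15 held under every alternative. Of the members not called, 9 in WT, 10 in KO, 2 at day 0, 1 at day 5 and 3 in the interaction were called under at least 1 alternative. In WT the genes so gained were *Dnmt1*, *Dnmt3a*, *Kdm1a*, *Hdac3*, *Hdac7*, *Ehmt2*, *Setd2*, *Ep300* and *Smarca4*. In KO they were *Ezh1*, *Kdm4a*, *Kdm5b*, *Hdac7*, *Sirt2*, *Sirt6*, *Kat2a*, *Ep300*, *Smarca4* and *Chd4*. The numbers of calls held and gained are given for the members alone. Leaving out libraries in turn changed the number of calls over all genes in every comparison. Among the members it changed in all but the interaction, where none was called. Without a library the median log2 fold change of the members ran from -0.17 to -8.6e-05 in WT, -0.24 to -0.052 in KO, 0.052 to 0.11 at day 0, 0.031 to 0.14 at day 5 and -0.14 to 0.040 in the interaction. At day 0, 1 gene (*Tet2*) was called by DESeq2 and 1 with at least 5 CPM in 2 libraries. In the interaction, 3 were called with no filter on low counts, 3 by DESeq2 and 1 at equal depth. With library totals the medians were 0.015 (day 5), -0.32 (WT) and -0.35 (KO), at equal depth 0.084 (day 5), and with at least 5 CPM in 2 libraries -0.22 (WT). The offset for the GC content and length of exons gave -0.0070 (day 5), 0.089 (WT) and 0.044 (KO), and turned 2 WT values, that of *Hdac7* to 0.74 and that of *Dot1l* to 0.021. Together with the replicate block the offset gave -0.0054, 0.090 and 0.040, and 0.73 and 0.028. Over all genes, KO against WT at day 5 was called for 205 genes, 131 with the offset, 123 with the offset and block, 418 with no filter and 351 by DESeq2; at day 0 for 227, with no filter 434; and the interaction for 20, with no filter 154, by DESeq2 135, at equal depth 50 and with the offset 10. The cause of these shifts was not tested, and no direction is claimed for genes that were not called.

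The labels do not say whether libraries of the same number in different groups share an animal or a day. Their deviations from the group means correlated at 0.12 between days in WT and 0.21 in KO and at -0.069 to 0.021 in the other pairs of groups, each of 2 libraries. The replicate block left the counts of calls at 0 (day 0), 4 (day 5), 26 (WT), 24 (KO) and 0 (interaction), with medians of 0.078, 0.046, -0.18, -0.17 and -0.12, and moved no member's call. A fit of only the 4 libraries of a comparison gives no interaction. At these depths 3 counts equal up to 0.723 CPM. *Hdac11* did not pass the filter of the main fit, so its changes were not tested there, and its values with no filter are not given.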

Other observations

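Further chromatin gene lists changed in both directions in culture, as did all genes. Of all genes tested, 48.3% were called in WT (24.7% higher and 23.6% lower). In KO 50.2% were called (26.2% higher and 24.0% lower). The lists below had 46.7% to 71.4% of their genes called in WT and 36.4% to 64.3% in KO, and no list was tested as a set. Their counts are those of the main fit. Of 9 methyl-CpG readers and demethylation partners tested, 4 rose and 2 fell in WT and 3 rose and 2 fell in KO. Of 15 other histone demethylases, 3 rose and 4 fell in WT and 2 rose and 6 fell in KO. The 14 other acetyltransferases and BET readers had more falls than rises, with 2 rises and 7 falls in WT and 3 and 6 in KO. The 11 other deacetylases and corepressors had 3 rises and 4 falls in WT and 2 and 2 in KO, the 7 partners of lysine 9 methylation and HP1 had 3 and 2 in WT and 2 and 2 in KO, and the 17 other histone methyltransferases had 5 and 5 in WT and 6 and 3 in KO.

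Of the 16 proliferation genes, 16 rose in WT and 16 in KO, with median log2 fold changes of 2.33 and 2.68. Of 6 erythroid markers none passed the filter on low counts, and of 5 NK-cell markers 2 passed, *Gzmm* and *Eomes*, both of which rose in both genotypes and are also known from effector CD8+ T cells.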
